A study of Mus musculus with 15 samples.

Results

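The genes described here are 31 genes of cholesterol and fatty acid synthesis: 7 of the mevalonate steps, 11 of the steps from squalene to the finished sterol ring, 5 that sense, regulate or carry sterols, 4 of acetyl-CoA supply and fatty acid synthesis, and 4 of fatty acid elongation and desaturation. They were listed by name from the 25700 genes of the count table, and a gene was to be kept if at least 3 libraries had 10 or more counts. All 31 met that rule, with 10 or more counts in each of the 15 libraries except Fads2, which had 3 counts in IFN-γ replicate 3. The count rule used no measured difference between groups, but the list was drawn up with earlier results of these data known.

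All RNA came from mouse bone marrow derived macrophages: marrow was flushed from the femur and tibia of animals aged 8 to 10 weeks and cultured for 7 days with 10 ng/ml of M-CSF, the growth factor that turns marrow progenitors into macrophages. Of 5 groups with 3 libraries each, one was left untreated (controls), a pair received heme-albumin (200 µM or 400 µM), one IL-4 and one IFN-γ, the cytokines at 10 ng/ml. The labels call the IL-4 cells M2 and the IFN-γ cells M1. Heme-albumin is hemin complexed with albumin of human serum, a protein that carries free heme in plasma. One label of the higher dose gives 400, 401 and 402 µM for replicates 1 to 3 while the titles give 400 µM, the value used here. The sources used here do not state how long the cells were treated. Every group had M-CSF and no library received albumin alone, so heme and its carrier cannot be told apart. The labels do not say whether libraries of 1 group came from different animals, so p-values measure how far these samples spread, a spread that may be purely technical.

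Cholesterol is built from acetyl-CoA through mevalonate and isoprenoid units to squalene, which is oxidised, closed into a ring and trimmed to cholesterol. Fatty acids are built from the same acetyl-CoA by acetyl-CoA carboxylase and fatty acid synthase and then lengthened and desaturated. Both routes are driven by the SREBP transcription factors: when membrane sterol is low the escort protein SCAP carries SREBP from the endoplasmic reticulum to the Golgi, where it is cut free to enter the nucleus, and when sterol is high INSIG proteins hold SCAP back. In macrophages the routes are also known to be turned down by interferon signalling.

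Total counts ran from 8427352 to 28587416 per library. Levels below are CPM, counts scaled to a common library size after TMM normalisation, and a gene is said to have risen or fallen where edgeR's quasi-likelihood test gave an adjusted p under 0.05 (Benjamini-Hochberg over the 11883 genes tested). Fold changes are log2 differences between group means with their standard error (SE). The 8 macrophage markers summed to 33078 to 38769 CPM in controls, 41897 to 55482 with heme-albumin, 14285 to 20381 with IL-4 and 12868 to 26416 with IFN-γ, and the 4 erythroid markers to at most 0.107 CPM in any library. Taken singly, most macrophage markers did not follow the higher sum under heme-albumin. At 400 µM 7 of 8 had a log2 change below 0 (0 rose, 2 fell), as had 48.9% of all genes tested. At 200 µM 5 of 8 had one (0 rose, 1 fell), against 47.3% of all genes. With IL-4 6 of 8 had one (0 rose, 3 fell), against 5947 of 11883 genes tested. With IFN-γ 4 of 8 had one (2 rose, 3 fell), against 46.0% of all genes. The median marker changed by -0.05 log2 with IFN-γ, so the lower sum there was not a fall of most markers. Markers of T and NK cells summed to 47.7 to 70.7 CPM in controls, 58.7 to 156 at 200 µM, 110 to 445 at 400 µM, 166 to 186 with IL-4 and 66.5 to 208 with IFN-γ, with Cd8a, Cd3d and Cd3e at 0 counts in every group. Markers of megakaryocytes and platelets summed to 130 to 246 CPM in controls, 425 to 479 at 200 µM, 362 to 680 at 400 µM, 83.7 to 112 with IL-4 and 13.4 to 35.1 with IFN-γ. Dendritic cell markers summed to at most 1.29 CPM in controls and with heme-albumin, to 2.7 to 5.49 with IL-4 and to 27.0 to 59.9 with IFN-γ. Osteoclast markers summed to at most 11.2 CPM in controls, at most 20.3 with heme-albumin, 99.7 to 177 with IL-4 and 44.1 to 241 with IFN-γ. The part of these markers in the results below was not tested, and in bulk RNA fewer cells of a type and less RNA per cell cannot be told apart. Within groups, log2 differences between 2 libraries had an SD over the tested genes of 0.255 to 0.413 except where heme-albumin 400 µM replicate 2 (0.477 and 0.567) or IFN-γ replicate 3 (0.688 and 0.769) was one of the pair.

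In untreated macrophages the 31 genes covered a wide range of levels. Per kilobase of annotated exon, the highest were Insig1 at 84.8 ± 11.7 (SD, n = 3), Fdps at 72.5 ± 4.45, Acly at 60.6 ± 6.36 and Fads1 at 50.4 ± 1.58 CPM per kb. The lowest were Elovl6 at 5.89 ± 1.13, Scap at 4.13 ± 0.657, Acss2 at 2.97 ± 0.387 and Acaca at 1.77 ± 0.213 CPM per kb. Among the controls the highest library exceeded the lowest by a median of 1.20 times over the members.

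Heme-albumin and IFN-γ lowered most of the genes, and IL-4 left nearly all of them within the test's threshold. At 400 µM heme-albumin 24 of 31 members fell and 2 rose, where 10.8% of all genes tested fell and 14.7% rose. At 200 µM 23 fell and 1 rose, against 9.48% and 14.0% of all genes. With IFN-γ 27 fell and 1 rose, against 19.5% and 24.1%. With IL-4 1 fell and 0 rose, against 12.0% and 14.9%; of the members that were higher, 2 had an unadjusted p under 0.05 in edgeR and DESeq2 called 0. The median log2 change of the members was -1.12 at 400 µM, -1.46 at 200 µM, -2.15 with IFN-γ and -0.35 with IL-4, while the median over all genes tested lay at 0.01, 0.02, 0.05 and 0.00, in the same order. These 4 comparisons share the control libraries. The heat map of all members shows the same picture library by library.

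**Figure D1:**
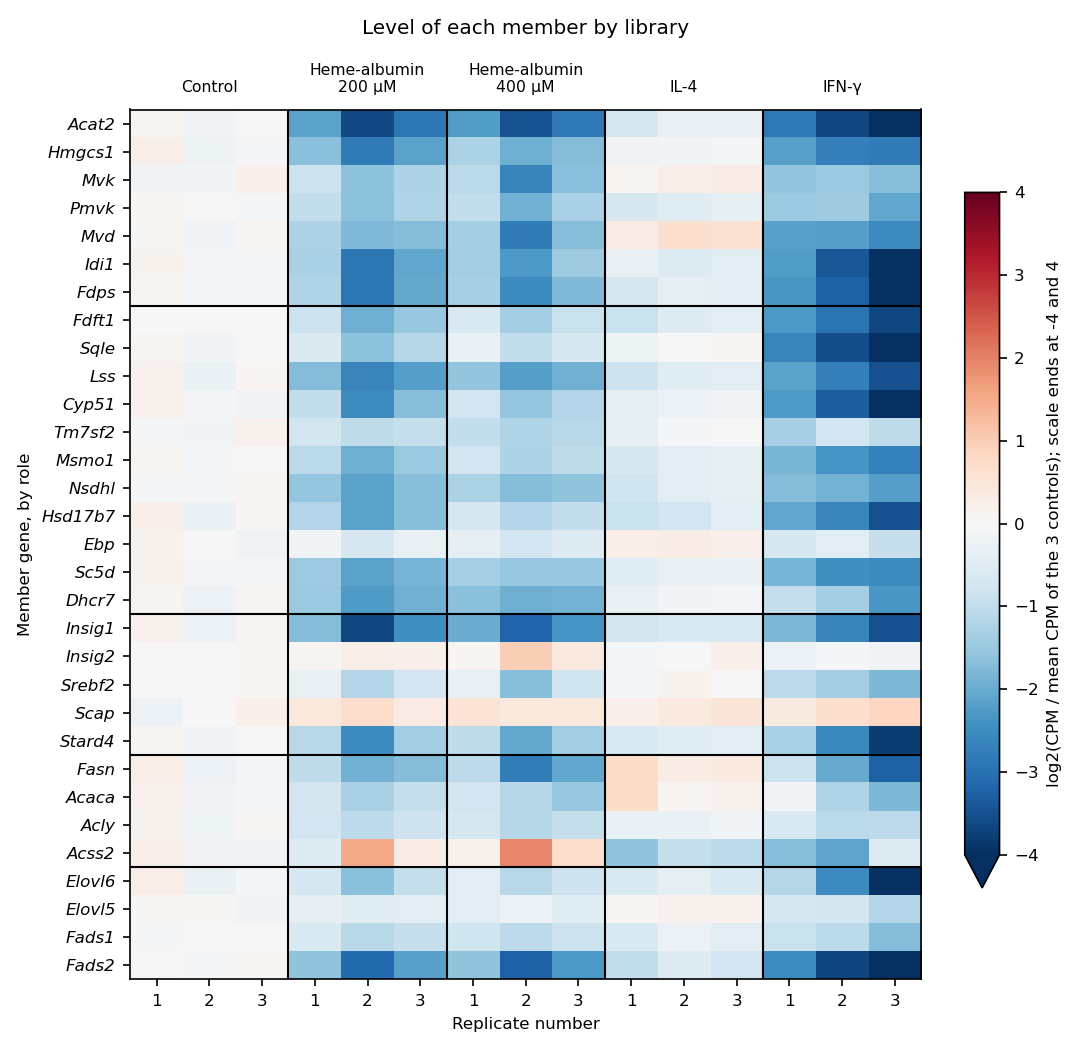
Level of each of the 31 members (rows, ordered by role) in each of the 15 libraries (columns, by group and replicate number) as log2 of its CPM over the mean CPM of the 3 controls. The heme-albumin and IFN-γ columns are mostly blue (below control), the IL-4 columns pale, and Scap is above the control mean in all 12 treated libraries.

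The fall was visible in every library of the 3 groups but differed in depth between libraries. The median member stood at -0.99, -1.93 and -1.50 log2 from the control mean in heme-albumin 200 µM replicates 1 to 3, at -0.97, -1.55 and -1.30 at 400 µM, and at -1.71, -2.21 and -2.55 with IFN-γ. Replicate 2 held the lowest value of its group for 28 of 31 members at 200 µM and for 27 of 31 at 400 µM, and IFN-γ replicate 3 for 26 of 31. Among the controls replicate 2 was also lowest for 23 of 31 members, though by much less (median -0.10 log2). With IL-4, replicate 1 was lowest for 27 of 31 members and the library medians were -0.41, -0.26 and -0.28. Over all tested genes the library medians ran from -0.01 to 0.05. At 400 µM the count of fallen members dropped from 24 to 15 without heme-albumin 400 µM replicate 2 or without replicate 3, and to 16 without control replicate 1. The share of all genes that fell dropped as well, from 10.8% to 7.49%, 8.26% and 8.05%, in the same order.

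The genes' upstream sequence was read from RefSeq windows of 250 bases before the transcript start (GRCm38.p6), which 26 of the 31 members had. TCACNCCA, the core of the sterol element that SREBP binds, read on both strands, was found in 3 of 26 members (11.5%: Hmgcs1, Msmo1 and Srebf2) and in 4.20% of 27025 genes. CCAAT, the box bound by NF-Y, was found on either strand in 20 of 26 members (76.9%) and in 37.5% of all genes. Both motifs were chosen with the expression results known, and a match describes letters and not a bound site. The windows of 5 members are shown because they place motif content beside the 2 directions of change, with matches in capitals: Hmgcs1 has 1 sterol element and 3 CCAAT boxes, Mvk 5 CCAAT boxes, Srebf2 1 of each, Insig2 3 CCAAT boxes, and Scap neither. The Srebf2 stretch ends where the annotated gene begins, and in none of the 5 do the motifs overlap.
Hmgcs1, chr13:119690101-119690350, plus strand: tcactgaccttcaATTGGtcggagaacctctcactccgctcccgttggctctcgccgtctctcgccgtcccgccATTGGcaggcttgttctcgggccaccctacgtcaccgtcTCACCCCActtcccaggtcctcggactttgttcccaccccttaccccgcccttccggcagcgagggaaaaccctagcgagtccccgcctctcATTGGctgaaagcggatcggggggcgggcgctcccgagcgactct
Mvk, chr5:114444019-114444268, plus strand: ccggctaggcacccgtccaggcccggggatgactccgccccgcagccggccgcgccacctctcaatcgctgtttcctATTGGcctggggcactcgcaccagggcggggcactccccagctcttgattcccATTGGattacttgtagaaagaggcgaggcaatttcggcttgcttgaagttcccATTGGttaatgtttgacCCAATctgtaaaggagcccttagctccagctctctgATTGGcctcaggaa
Srebf2, chr15:82147019-82147180, plus strand: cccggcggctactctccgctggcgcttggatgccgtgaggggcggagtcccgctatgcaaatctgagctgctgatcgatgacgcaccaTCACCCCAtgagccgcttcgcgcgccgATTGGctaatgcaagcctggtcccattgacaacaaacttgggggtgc
Insig2, chr1:121332590-121332839, minus strand: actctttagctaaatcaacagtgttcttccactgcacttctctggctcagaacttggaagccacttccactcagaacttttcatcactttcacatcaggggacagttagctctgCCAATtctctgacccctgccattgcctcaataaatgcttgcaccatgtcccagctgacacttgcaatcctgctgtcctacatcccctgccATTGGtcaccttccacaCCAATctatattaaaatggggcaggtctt
Scap, chr9:110333038-110333287, plus strand: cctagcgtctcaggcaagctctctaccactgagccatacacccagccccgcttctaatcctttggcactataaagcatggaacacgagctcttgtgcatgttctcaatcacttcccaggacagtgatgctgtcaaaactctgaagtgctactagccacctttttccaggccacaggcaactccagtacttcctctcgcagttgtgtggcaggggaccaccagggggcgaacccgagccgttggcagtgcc
Hmgcs1 and Mvk fell with both doses of heme-albumin and with IFN-γ, Insig2 and Scap were the 2 members that rose at 400 µM, and Srebf2 fell with IFN-γ. Acat2, Acaca, Acly, Elovl6 and Fads2, whose windows are not shown, had neither motif, like Scap. All of them had lower values than control at both doses and with IFN-γ. Whether motif content goes with the direction of change was not tested.

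The mevalonate genes, which turn acetyl-CoA into farnesyl diphosphate, fell together: 7 of 7 at 200 µM, 7 of 7 at 400 µM and 7 of 7 with IFN-γ. Acat2, which joins 2 acetyl-CoA in the cytosol, fell most. Its control level was 87.4, 73.0 and 82.9 CPM in replicates 1 to 3. It stood at 18.3, 6.68 and 11.0 CPM at 200 µM, at 17.3, 7.31 and 11.1 CPM at 400 µM, and at 11.1, 6.45 and 3.17 CPM with IFN-γ. No library of these 3 groups came near a control, and the log2 change was -2.74 ± 0.41 (SE; adjusted p = 0.000342), -2.77 ± 0.41 (0.000314) and -3.55 ± 0.42 (2.27e-05) in edgeR's test. With IL-4 Acat2 was 50.5, 65.9 and 66.3 CPM, below all 3 controls but not past the threshold (adjusted p = 0.454).

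Hmgcs1, the synthase that makes HMG-CoA, had 265, 198 and 214 CPM in controls. It had 71.1, 32 and 51.4 CPM at 200 µM, 93.2, 58.9 and 68.6 CPM at 400 µM, and 50.5, 34.0 and 32.6 CPM with IFN-γ. The 3 groups lay wholly below the controls, with log2 changes of -2.13 ± 0.26 (adjusted p = 7.72e-05), -1.62 ± 0.26 (0.000524) and -2.53 ± 0.27 (7.41e-06). With IL-4 it was 206, 207 and 217 CPM, inside the control range.

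The 3 genes of the steps from mevalonate to isopentenyl diphosphate fell at both doses and with IFN-γ. Mvk and Pmvk, the kinases that phosphorylate mevalonate, changed by -1.65 ± 0.28 and -1.35 ± 0.22 log2 at 400 µM (edgeR adjusted p = 0.00087 and 0.000672). Mvd, the decarboxylase that follows them, had 62.6, 54.9 and 63.3 CPM in controls, 23.4, 8.63 and 18.3 CPM at 400 µM, and 13.5, 13.0 and 10.4 CPM with IFN-γ. Its log2 change was -1.84 ± 0.26 at 400 µM (adjusted p = 0.000226) and -2.29 ± 0.26 with IFN-γ (1.63e-05). With IL-4 Pmvk stood below every control at 28.4, 31.9 and 33.5 CPM (-0.50 ± 0.21, adjusted p = 0.0991). Mvd stood above every control with IL-4 at 75.3, 94.3 and 92.4 CPM, a difference of 0.54 ± 0.25 that missed the threshold (adjusted p = 0.129).

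Idi1, which isomerises isopentenyl diphosphate, and Fdps, which builds farnesyl diphosphate, changed by -1.64 ± 0.44 and -1.79 ± 0.50 at 400 µM (edgeR adjusted p = 0.014 and 0.0184) and by -3.10 ± 0.46 and -3.15 ± 0.53 with IFN-γ (0.000148 and 0.000379). Fdps had 327, 293 and 295 CPM in controls, 121, 52.3 and 90.2 CPM at 400 µM, and 60.1, 31.7 and 10.7 CPM with IFN-γ. At 400 µM the calls of both ended without heme-albumin 400 µM replicate 2 (adjusted p = 0.058 for Idi1 and 0.0766 for Fdps), and that of Fdps also without replicate 3 (0.0528). At 200 µM the call of Fdps ended without heme-albumin 200 µM replicate 2 (0.071) or 3 (0.055). Reads of Acat2, Idi1 and Fdps may be shared with near-identical sequence (Acat3 and a stretch of Tcp1 for Acat2, processed pseudogenes for the others), so their counts are uncertain. Exons of Fdps also overlap those of Gm43738 on the same strand.

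**Figure D2:**
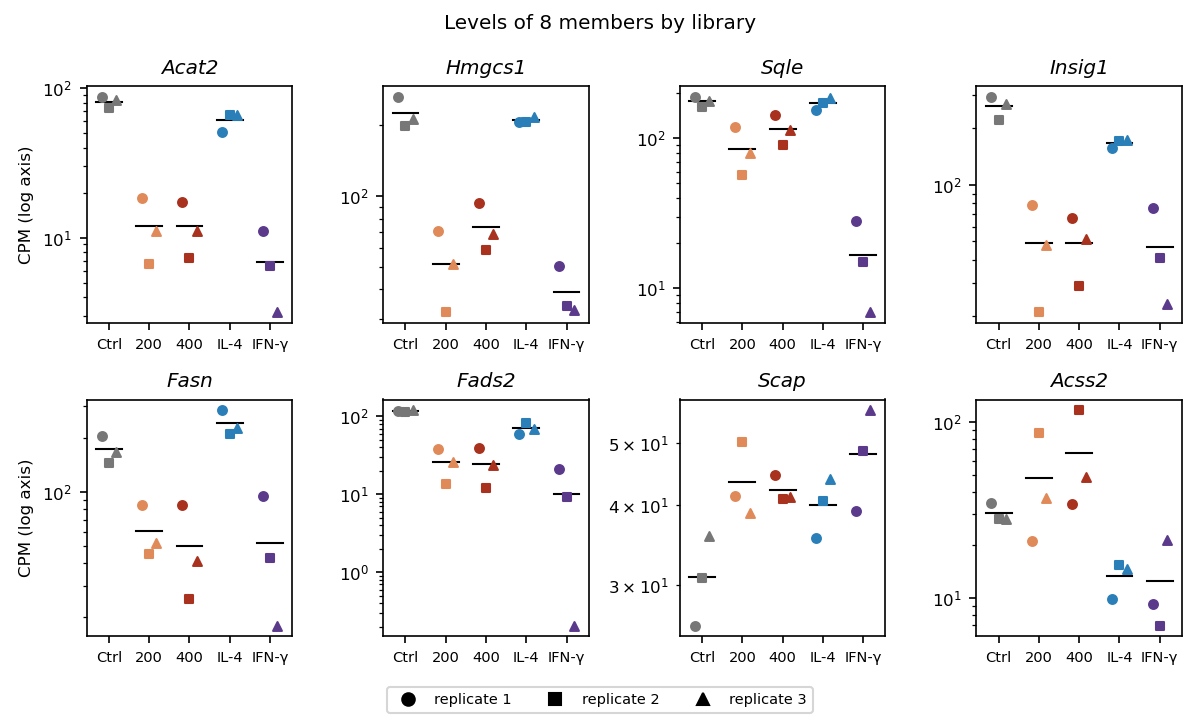
CPM of 8 members (log axis, a range of its own per panel) in controls (Ctrl), heme-albumin 200 and 400 µM, IL-4 and IFN-γ. Each point is 1 library, with its replicate number as the symbol, and the bar is the group mean. Acat2, Hmgcs1, Insig1 and Fads2 lie below all controls with heme-albumin and IFN-γ, Sqle is lowest with IFN-γ, and Acss2 of replicate 2 stands highest at both heme-albumin doses.

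In the branch committed to sterols, from squalene to cholesterol, 9 of 11 genes fell at 200 µM, 9 of 11 at 400 µM and 11 of 11 with IFN-γ. Nsdhl, a dehydrogenase that removes the ring's extra carbon groups, was the only member that fell under all 4 treatments. It had 89.8, 88.5 and 100 CPM in controls. Under heme-albumin it had 32.1, 21.1 and 28.2 CPM at 200 µM and 38.8, 27.9 and 30.7 CPM at 400 µM, under IL-4 54.0, 67.5 and 70.4 CPM, and under IFN-γ 28.0, 24.8 and 20.1 CPM. None of the treated groups overlapped the controls, and the log2 changes were -1.77 ± 0.18 (edgeR adjusted p = 1.31e-05), -1.52 ± 0.17 (4.57e-05), -0.54 ± 0.17 (0.0301) and -1.93 ± 0.17 (1.88e-06).

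Sc5d, the desaturase that acts late in the ring steps, had 125, 107 and 109 CPM in controls. It fell to 41.8, 25.8 and 31.4 CPM at 200 µM, 45.6, 39.7 and 40.2 CPM at 400 µM and 31.3, 20.7 and 19.4 CPM with IFN-γ, all far under the lowest control. Its adjusted p was 2.23e-05, 0.000103 and 1.01e-06 (log2 change -1.79 ± 0.19, -1.45 ± 0.19 and -2.26 ± 0.19). Lss, which closes squalene epoxide into lanosterol, and Dhcr7, which makes cholesterol from 7-dehydrocholesterol, changed by -1.89 ± 0.30 and -1.83 ± 0.28 at 400 µM (adjusted p = 0.000496 and 0.000362). With IFN-γ Dhcr7 fell by 1.44 ± 0.27 (adjusted p = 0.000907).

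Sqle, squalene epoxidase and a rate-limiting enzyme of the route, set the treatments apart. Its control level was 189, 162 and 177 CPM. Heme-albumin gave 119, 56.7 and 79.2 CPM at 200 µM and 143, 89.9 and 114 CPM at 400 µM, IL-4 gave 155, 173 and 185 CPM, and IFN-γ gave 28.3, 14.9 and 6.95 CPM. Both heme-albumin groups lay below all controls without passing the test, at -1.05 ± 0.36 (adjusted p = 0.0519) and -0.61 ± 0.36 (0.238), while the IFN-γ change was -3.39 ± 0.40 (2.01e-05). With the replicate number as a block the 200 µM change passed (adjusted p = 0.022), as it did without heme-albumin 200 µM replicate 1 (0.0317) and with DESeq2 (0.0181). With only the 6 libraries compared Sqle passed as lower at 200 µM (0.00461) and at 400 µM (0.0245).

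Fdft1, the squalene synthase, and Cyp51, the lanosterol demethylase, followed the same order. Fdft1 had 83.8, 80.8 and 82.1 CPM in controls, 54.1, 31.3 and 44.2 CPM at 400 µM, and 16.9, 10.6 and 6.61 CPM with IFN-γ. Its change was -0.93 ± 0.31 at 400 µM (adjusted p = 0.0396) and -2.85 ± 0.33 with IFN-γ (1.63e-05). Cyp51 had 207, 176 and 169 CPM in controls, 109, 63.0 and 82.0 CPM at 400 µM and 38.0, 18.7 and 8.68 CPM with IFN-γ, a change of -1.12 ± 0.42 at 400 µM that missed the threshold (0.0684; 0.0287 with the replicate block) and of -3.08 ± 0.46 with IFN-γ (0.000142). The 400 µM change of Cyp51 also passed with DESeq2 (adjusted p = 0.03) and with only the 6 libraries compared (0.00325). At 200 µM Cyp51 fell by 1.60 ± 0.43 (adjusted p = 0.0161), a call that ended without control replicate 1 (0.0517) or heme-albumin 200 µM replicate 2 (0.0727) or 3 (0.0549). Fdft1 overlaps exons of Ctsb on the opposite strand and Cyp51 those of Akap9, and the sources used here do not state the strand setting of the counting. Fdft1 also has a near-identical processed pseudogene.

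Of the other ring genes, Msmo1, Tm7sf2 and Hsd17b7 fell at both doses and with IFN-γ, and Ebp at 400 µM and with IFN-γ. Msmo1, which oxidises the same carbon groups as Nsdhl, had 282, 249 and 259 CPM in controls, 155, 112 and 130 CPM at 400 µM and 74.5, 51.0 and 40.8 CPM with IFN-γ (log2 change -0.99 ± 0.23, adjusted p = 0.0058, and -2.25 ± 0.23, 6.99e-06). Tm7sf2, a sterol reductase, changed by -1.10 ± 0.16 at 400 µM and by -1.02 ± 0.15 with IFN-γ (adjusted p = 0.00023 and 0.000164). Its exons overlap those of Vps51 on the same strand, so its counts are uncertain. Hsd17b7, the ketosteroid reductase of the route, changed by -1.62 ± 0.30 at 200 µM (0.00156), -0.92 ± 0.29 at 400 µM (0.0328) and -2.62 ± 0.31 with IFN-γ (1.98e-05). Ebp, a sterol isomerase, moved least, by -0.53 ± 0.15 at 400 µM (0.0216) and -0.66 ± 0.15 with IFN-γ (0.00341), and at 200 µM it overlapped the controls (66.3, 45.6 and 58.0 against 78.8, 69.6 and 64.1 CPM). The 400 µM calls of Fdft1, Hsd17b7 and Ebp each ended without control replicate 1, or without heme-albumin 400 µM replicate 2 or 3, with adjusted p up to 0.145, 0.111 and 0.0877. Those of Fdft1 and Hsd17b7 ended without control replicate 3 (0.0853 and 0.0803) and that of Fdft1 without control replicate 2 (0.0795).

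The regulators divided. Insig1, the sterol-responsive anchor of SCAP and itself an SREBP target, had the highest control level per kilobase and fell strongly: from 295, 223 and 269 CPM in controls to 78.4, 21 and 48.0 CPM at 200 µM, 66.8, 29 and 51.6 CPM at 400 µM and 75.7, 40.7 and 23.1 CPM with IFN-γ. The 3 log2 changes were almost equal, at -2.41 ± 0.46, -2.41 ± 0.46 and -2.49 ± 0.46 (edgeR adjusted p = 0.00204, 0.00189 and 0.000779). With IL-4 Insig1 was 157, 171 and 173 CPM, under all controls but not past the threshold (adjusted p = 0.3). Stard4, a cytosolic carrier of sterols, had 140, 122 and 130 CPM in controls, 65.1, 31.5 and 49.8 CPM at 400 µM and 52.6, 22.1 and 9.30 CPM with IFN-γ. Its change was -1.57 ± 0.48 at 200 µM (adjusted p = 0.0296), -1.42 ± 0.48 at 400 µM (0.0429) and -2.22 ± 0.49 with IFN-γ (0.00262). At each dose the heme-albumin call of Stard4 ended without any 1 of the 3 controls or without replicate 2 or 3 of that dose, with adjusted p up to 0.122 at 200 µM and 0.149 at 400 µM.

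Scap rose at both doses and with IFN-γ, and Insig2, the second INSIG, at 400 µM only. Scap had 25.9, 30.7 and 35.7 CPM in controls, 41.3, 50.2 and 38.8 CPM at 200 µM, 44.6, 40.9 and 41.1 CPM at 400 µM, 35.5, 40.6 and 43.9 CPM with IL-4 and 39.1, 48.6 and 56.2 CPM with IFN-γ. The heme-albumin and IFN-γ libraries all stood above the highest control, and Scap rose by 0.50 ± 0.15, 0.46 ± 0.15 and 0.64 ± 0.15 log2 (adjusted p = 0.0294, 0.0414 and 0.00414), with 0.38 ± 0.15 under IL-4 (0.0782). Insig2 had 35.3, 35.8 and 37.1 CPM in controls and 38.4, 71.6 and 47.3 CPM at 400 µM, a rise of 0.54 ± 0.17 (adjusted p = 0.0319) in which replicate 2 stood highest. At 200 µM Insig2 had 39.0, 42.3 and 41.8 CPM, above every control but not past the threshold (0.19 ± 0.17, 0.453). With IFN-γ it had 30.7, 34.9 and 32.6 CPM, below every control and also not past it (-0.14 ± 0.17, 0.524). Without heme-albumin 400 µM replicate 2 the Insig2 value was 0.25 log2 and the call ended (adjusted p = 0.131), as it did without any 1 of the 3 controls (0.0787 to 0.0954). The Scap call at 400 µM ended without control replicate 1 (0.17) or 2 (0.108) or without any 1 of the heme-albumin 400 µM libraries (0.0734 to 0.0987), and that at 200 µM without control replicate 1 (0.154) or 2 (0.0898) or heme-albumin 200 µM replicate 2 (0.143). Exons of Scap overlap those of another gene, so its counts are uncertain.

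Srebf2, which encodes the SREBP that drives the sterol genes, had 213, 213 and 221 CPM in controls. It had 176, 95.9 and 127 CPM at 200 µM, 177, 66.4 and 124 CPM at 400 µM, and 103, 82.7 and 61.4 CPM with IFN-γ. Every one of these 9 libraries was below the controls. Only the IFN-γ change passed the test (-1.39 ± 0.30, adjusted p = 0.00221). The values at 200 and 400 µM were -0.70 ± 0.29 (0.102) and -0.81 ± 0.29 (0.0575). The 400 µM change passed with the replicate block (0.0259) and with DESeq2 (0.0243), and without heme-albumin 400 µM replicate 1 it was -1.17 (0.0117). With only the 6 libraries compared the 200 µM change passed (0.0122).

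Of the acetyl-CoA and fatty acid synthesis genes, Acly and Fasn fell with both doses and with IFN-γ, Acaca fell at 400 µM, and Acss2 passed no test against control. Acly, which cuts citrate into cytosolic acetyl-CoA, had 349, 283 and 327 CPM in controls, 188, 154 and 179 CPM at 200 µM, 199, 145 and 165 CPM at 400 µM and 211, 151 and 155 CPM with IFN-γ. Its changes were close to each other at -0.88 ± 0.15, -0.91 ± 0.15 and -0.89 ± 0.15 (edgeR adjusted p = 0.000925, 0.000674 and 0.000382), and with IL-4 its range of 266 to 298 CPM overlapped the controls.

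Fasn, fatty acid synthase, had 206, 145 and 167 CPM in controls, 84.6, 45.4 and 51.8 CPM at 200 µM, 84.4, 25.2 and 41.3 CPM at 400 µM and 95.2, 42.8 and 18 CPM with IFN-γ. All 9 libraries lay below the controls, with changes of -1.51 ± 0.50 (adjusted p = 0.0441), -1.78 ± 0.51 (0.0205) and -1.73 ± 0.50 (0.0142). With IL-4 Fasn stood above all controls at 285, 211 and 226 CPM, a difference of 0.48 ± 0.49 that did not pass (0.511). The IFN-γ call of Fasn ended with only the 6 libraries compared (-1.76, adjusted p = 0.0524). The 400 µM call of Fasn ended without control replicate 1 (0.0619) or heme-albumin 400 µM replicate 2 (0.0807) or 3 (0.0721), and the 200 µM call without any 1 control or without heme-albumin 200 µM replicate 2 or 3 (adjusted p up to 0.159). Acaca, the carboxylase that commits acetyl-CoA to fatty acids, changed by -0.98 ± 0.34 at 200 µM (0.0521; 0.00741 with the replicate block), -1.11 ± 0.34 at 400 µM (0.03) and -0.86 ± 0.33 with IFN-γ (0.0502; 0.00436 with the block). DESeq2 called Acaca lower at 200 µM (adjusted p = 0.0194) and with IFN-γ (0.0284). The 400 µM call of Acaca ended without any 1 control or without heme-albumin 400 µM replicate 2 or 3 (adjusted p up to 0.11), without IFN-γ replicate 1 the IFN-γ value was -1.45 and passed (0.000818), and Acaca has a near-identical processed pseudogene.

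Acss2, which makes acetyl-CoA from free acetate, was the member with the widest spread under heme-albumin. It had 34.7, 27.9 and 27.9 CPM in controls, 21, 86.1 and 36.9 CPM at 200 µM, 34.2, 116 and 48.7 CPM at 400 µM, 9.92, 15.5 and 14.6 CPM with IL-4 and 9.20, 6.98 and 21.3 CPM with IFN-γ. Replicate 2 was the highest library at both doses, the same replicate in which most other members were lowest, and the heme-albumin groups overlapped the controls. None of the 4 changes passed: 0.67 ± 0.53 (adjusted p = 0.387), 1.13 ± 0.53 (0.138), -1.17 ± 0.54 (0.13) and -1.29 ± 0.55 (0.0712; 0.046 with the replicate block). Without heme-albumin 200 µM replicate 2 the 200 µM value was -0.07, and without IFN-γ replicate 3, the highest of its group, the IFN-γ change was -1.91 and passed (0.0192). With only the 6 libraries compared the IL-4 change passed (adjusted p = 0.000472), and DESeq2 called Acss2 lower with IFN-γ (0.0303). Every IL-4 and IFN-γ library was below every control. Exons of Acss2 overlap those of Ggt7, Acss2os and Gss on the opposite strand, so its counts are uncertain.

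Among the genes that lengthen and desaturate fatty acids, 3 of 4 fell at each heme-albumin dose and 4 of 4 with IFN-γ. Fads2, the first desaturase of polyunsaturated fatty acid synthesis, had 118, 113 and 120 CPM in controls, 38.6, 13.4 and 25.8 CPM at 200 µM, 38.8, 12.2 and 23.7 CPM at 400 µM and 59.0, 82.6 and 69.6 CPM with IL-4. With IFN-γ it had 21, 9.16 and 0.207 CPM, the last from 3 counts. The treated libraries were all below the controls, and the changes were -2.17 ± 0.71 (edgeR adjusted p = 0.0416), -2.23 ± 0.72 (0.0356), -0.73 ± 0.67 (0.465) and -3.52 ± 0.76 (0.0023). The heme-albumin calls of Fads2 ended with DESeq2 (adjusted p = 0.0668 and 0.0579) and without any 1 control, without any 1 library of the 200 µM group, or without heme-albumin 400 µM replicate 2 or 3 (up to 0.159 and 0.12).

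Fads1, the desaturase that follows it, was steadier: 234, 248 and 246 CPM in controls, 159, 113 and 128 CPM at 200 µM, 139, 117 and 134 CPM at 400 µM and 131, 114 and 72.1 CPM with IFN-γ. Its changes were -0.86 ± 0.19 (adjusted p = 0.00468), -0.90 ± 0.19 (0.00332) and -1.20 ± 0.19 (0.000224). Elovl5, which elongates polyunsaturated chains, changed by -0.40 ± 0.12 (0.0302), -0.38 ± 0.12 (0.0382) and -0.85 ± 0.12 (0.000122). Its heme-albumin calls ended without control replicate 1 or 2, without any 1 library of the 200 µM group, or without heme-albumin 400 µM replicate 1 or 3 (adjusted p up to 0.11 and 0.123). Elovl6, which elongates saturated chains, had 45.6, 31.2 and 36.9 CPM in controls, 28.3, 17.5 and 21.5 CPM at 400 µM and 17.1, 6.45 and 1.86 CPM with IFN-γ. In the main fit it passed the test with IFN-γ only (-2.15 ± 0.50, adjusted p = 0.00387), with -1.05 ± 0.48 (0.135) and -0.76 ± 0.48 (0.273) at the lower and higher dose. With only the 6 libraries compared Elovl6 passed as lower at both doses (0.00537 and 0.0239). It shares sequence with a processed pseudogene.

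**Figure D3:**
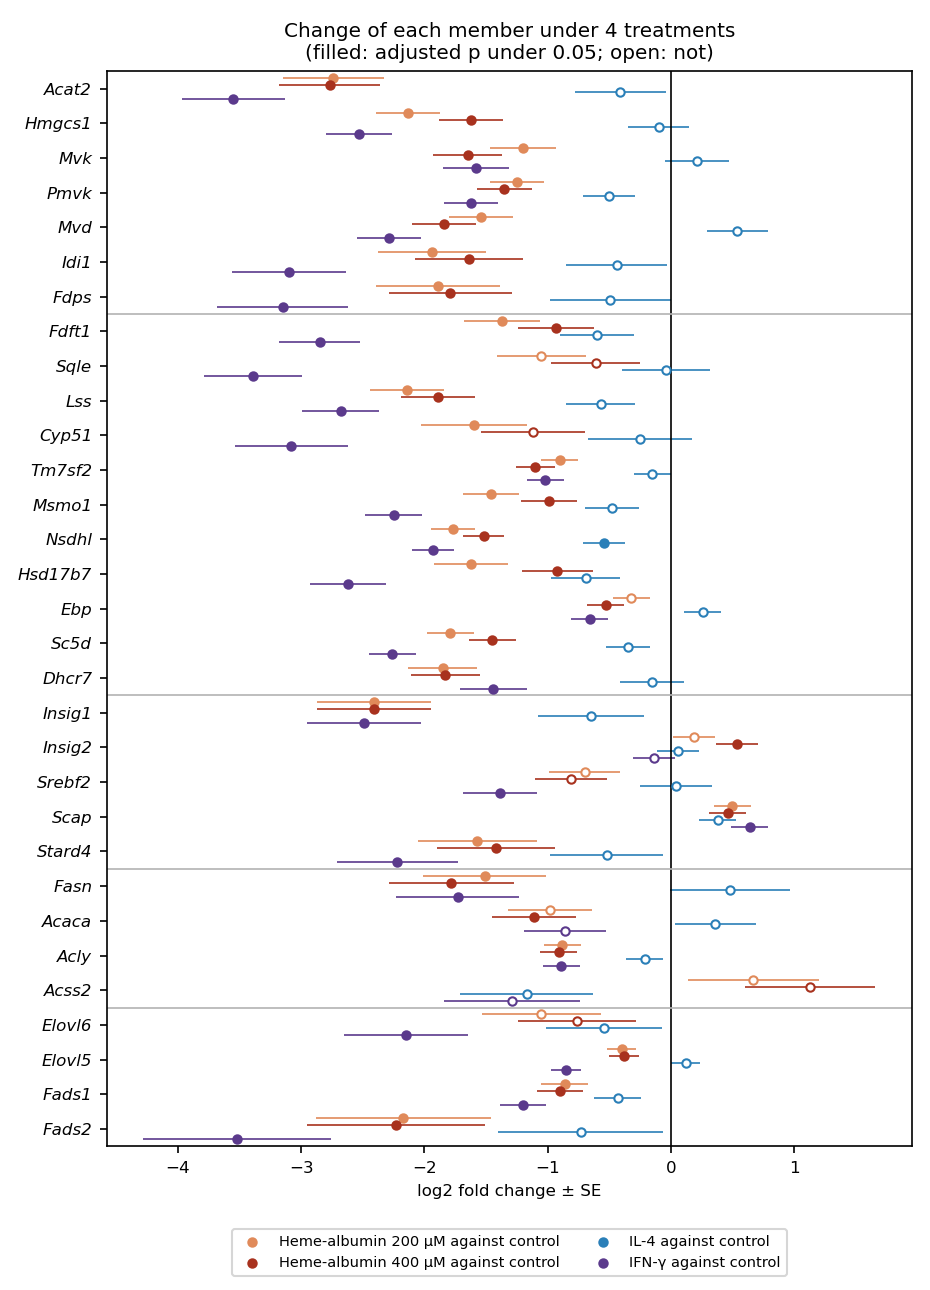
Log2 fold change against control with its standard error (x axis) for each of the 31 members (y axis, by role) under 4 treatments. Filled points have an adjusted p under 0.05. The IFN-γ points lie farthest left for most genes, the heme-albumin doses lie close together, and the IL-4 points lie near 0 and are filled only for Nsdhl.

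No member passed the test between the 2 doses of heme-albumin. In the direct comparison of 400 with 200 µM, edgeR called 0 of 31 members higher and 0 lower, with 0.0% of all genes called in each direction. At an unadjusted p under 0.05 there were 1 member higher and 0 lower, and 745 and 1051 of all genes, and DESeq2 called 0 members and 2 genes higher and 9 genes lower. Member differences ran from -0.46 to 0.70 log2, with a median of 0.03 against 0.00 over all genes. The member at the top was Hsd17b7, with 30.4, 21.7 and 24.7 CPM at 400 µM and 21.3, 10.9 and 14.9 CPM at 200 µM (0.70 ± 0.30, adjusted p = 0.307). It was the 1 of 31 members whose 2 groups did not overlap. Among all 11883 genes tested, 1191 were higher and 1479 lower at 400 µM without overlap. Hmgcs1 (0.51 ± 0.26), Msmo1 (0.47 ± 0.23) and Sqle (0.44 ± 0.36) also had higher values at the higher dose, and Mvk a lower one (-0.46 ± 0.29). With the replicate block and only the 6 libraries of the 2 doses, an alternative added after seeing the data, Hsd17b7, Msmo1 and Acss2 passed as higher (adjusted p = 0.035, 0.0465 and 0.0468), as did 1.31% of 11192 genes.

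With IL-4 only Nsdhl passed the test, while 6 members with a lower value had an unadjusted p under 0.05, and DESeq2 called 1 lower. The Nsdhl call ended without control replicate 1 or 3 or IL-4 replicate 1 or 2 (adjusted p up to 0.127). Yet 17 of 31 members were lower in all 3 IL-4 libraries than in any control, where 26.7% of all genes were, and 22 of 31 (71.0%) had a value below 0, as had 5947 of 11883 genes tested. The lowest values were those of Acss2 (-1.17), Fads2 (-0.73), Hsd17b7 (-0.69), Insig1 (-0.65) and Fdft1 (-0.60), and the highest those of Mvd (0.54), Fasn (0.48), Scap (0.38) and Acaca (0.36). The spread assumed for these genes came from all 5 groups. With only the 6 libraries of IL-4 and control, 16 members fell and 4 rose, against 22.0% and 23.0% of 11442 genes. Among those, Acat2, Pmvk, Insig1 and Fads2 fell (edgeR adjusted p = 0.0174, 0.00112, 0.000913 and 0.000745). Mvd, Fasn and Scap rose (0.00318, 0.0296 and 0.0332).

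Set against IL-4, heme-albumin at 400 µM had 18 of 31 members lower and 2 higher, where 19.7% and 20.5% of all genes were. The median member difference was -0.90 log2, against 0.00 over all genes. Mevalonate genes led: 6 of 7 were lower, with Mvd at -2.37 ± 0.26 (edgeR adjusted p = 1.33e-05), Acat2 at -2.35 ± 0.41 (0.000493) and Mvk at -1.86 ± 0.28 (0.000164). Fasn (-2.26 ± 0.51, 0.00341), Acaca (-1.47 ± 0.34, 0.00393) and Acly (-0.71 ± 0.15, 0.00204) were lower, as were Insig1 (-1.76 ± 0.45, 0.00708) and Dhcr7 (-1.68 ± 0.28, 0.000327). Acss2 was higher, with 34.2, 116 and 48.7 CPM against 9.92, 15.5 and 14.6 CPM and no overlap (2.31 ± 0.55, 0.00462). Insig2 was higher by 0.47 ± 0.17 (0.0368), a call that ended without heme-albumin 400 µM replicate 2 or without IL-4 replicate 1 or 2 (adjusted p up to 0.209). Among the ring genes 6 of 11 were lower, and Fdft1 (-0.32 ± 0.30), Hsd17b7 (-0.23 ± 0.29) and Sqle (-0.56 ± 0.36) were among the 5 that were not called. The calls of Idi1 (-1.21 ± 0.43, 0.0389) and Srebf2 (-0.85 ± 0.29, 0.0321) ended without any 1 of the 6 libraries for Idi1 (up to 0.135), and for Srebf2 without any 1 IL-4 library or without heme-albumin 400 µM replicate 2 or 3 (up to 0.103). With the replicate block Fdps, Cyp51 and Msmo1 passed as well (adjusted p = 0.021, 0.0458 and 0.0359).

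Set against IFN-γ, heme-albumin at 400 µM had 14 of 31 members higher and 0 lower, where 20.6% and 22.3% of all genes were. For the lower direction edgeR had 0 members at an unadjusted p under 0.05 and DESeq2 called 0. The higher members were mostly of the sterol route: 7 of 11 ring genes, led by Sqle at 143, 89.9 and 114 CPM against 28.3, 14.9 and 6.95 CPM (2.78 ± 0.39, edgeR adjusted p = 7.12e-05). Cyp51 (1.95 ± 0.44, 0.0029), Fdft1 (1.92 ± 0.32, 0.000311), Hsd17b7 (1.70 ± 0.30, 0.00054) and Msmo1 (1.25 ± 0.23, 0.000617) followed, and none of these 5 overlapped between groups. Acss2 was higher by 2.42 ± 0.56 (0.00332), Insig2 by 0.68 ± 0.17 (0.00535) and Elovl5 by 0.47 ± 0.12 (0.00722). With only the 6 libraries compared the calls of Insig2 and Elovl5 ended (adjusted p = 0.0767 and 0.0861; 0.0856 and 0.101 with the replicate block as well).

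For other members the difference between these groups was small beside its error. Fasn (-0.05 ± 0.50), Acly (-0.02 ± 0.15), Mvk (-0.08 ± 0.28), Tm7sf2 (-0.08 ± 0.16) and Insig1 (0.08 ± 0.44) had differences within 1 SE of 0, and Dhcr7 had a lower value with heme-albumin (-0.39 ± 0.27, adjusted p = 0.269) that passed without IFN-γ replicate 3. Upper-quartile scaling moved the median of all genes in this comparison from -0.01 to 0.12, and under it Fasn, Acly, Mvk and Tm7sf2 changed sign. The count of 14 became 9 without heme-albumin 400 µM replicate 1, 10 without its replicate 3 and 10 without IFN-γ replicate 2, and 8 with only the 6 libraries compared. The share of all genes called higher was 19.1%, 16.9%, 18.1% and 11.0%, in the same order. Calls that ended on leaving out 1 library were those of Hmgcs1, Idi1, Fdps, Lss and Elovl6 (adjusted p up to 0.0535, 0.0729, 0.143, 0.151 and 0.115), and of these all but that of Hmgcs1 also ended with only the 6 libraries.

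**Figure D4:**
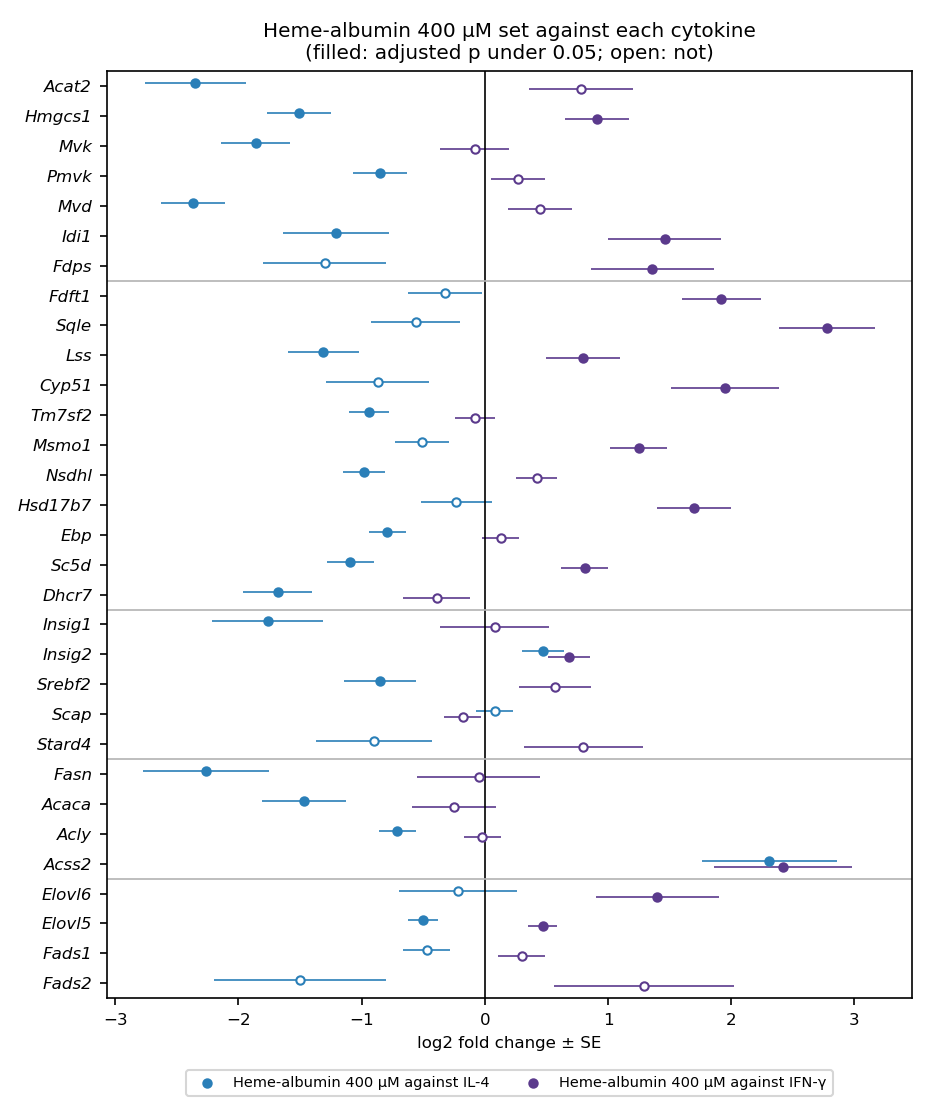
Log2 fold change of heme-albumin 400 µM against IL-4 and against IFN-γ with its standard error (x axis) for the 31 members (y axis, by role). Filled points have an adjusted p under 0.05. Against IL-4 most points lie left of 0, against IFN-γ most lie at or right of 0, and Acss2 lies right of 0 in both.

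Genes next to these routes, from 4 lists drawn up for this purpose with earlier results of these data known, moved less uniformly. Of all genes tested, 10.8% fell and 14.7% rose at 400 µM, and 9.48% and 14.0% did at 200 µM. With IFN-γ 19.5% fell and 24.1% rose, and with IL-4 12.0% and 14.9%. No list was tested as a set, and several of the counts below lie near these shares. Of 22 tested other genes of fatty acid synthesis and activation, 6 fell and 3 rose at 400 µM (median -0.13), 5 fell and 3 rose at 200 µM (-0.18), 12 fell and 2 rose with IFN-γ (-0.48) and 3 fell and 2 rose with IL-4 (-0.06). Scd1, the desaturase that makes monounsaturated fatty acids, had 206, 255 and 145 CPM in controls, 1.42, 2.76 and 1.26 CPM at 400 µM and 10.7, 6.54 and 0.275 CPM with IFN-γ (log2 change -6.84 ± 0.75, edgeR adjusted p = 3.33e-05, and -5.09 ± 0.64, 3.63e-05). Lpin1, a phosphatidate phosphatase, changed by -1.26 ± 0.17 (0.000177) and -1.49 ± 0.17 (1.73e-05), and rose with IL-4 by 0.78 ± 0.17 (0.00316). Me1, malic enzyme and a source of NADPH for lipid synthesis, rose by 2.30 ± 0.18 at 400 µM (2.41e-06) while it fell by 1.03 ± 0.18 with IFN-γ (0.000563) and by 1.19 ± 0.18 with IL-4 (0.000304).

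Of 17 tested other genes of sterol synthesis and the SREBP pathway, 5 fell and 1 rose at 400 µM, 6 fell at 200 µM, 9 fell and 4 rose with IFN-γ and 2 fell and 1 rose with IL-4, with medians of -0.20, -0.21, -0.35 and 0.02. Srebf1, the SREBP of the fatty acid genes, fell by 0.90 ± 0.23 at 400 µM (edgeR adjusted p = 0.0107) and by 0.59 ± 0.22 with IFN-γ (0.048). Of 14 genes of the isoprenoid branch, which uses farnesyl diphosphate for other products, 2 fell and 3 rose at 400 µM, where 10.8% and 14.7% of all genes did. In that branch 1 fell and 2 rose at 200 µM and 1 fell and 2 rose with IFN-γ. Its medians were 0.01, 0.07 and 0.03, in the same order. Ggps1, which adds a further isoprene unit to farnesyl diphosphate, rose by 0.53 ± 0.11 at 400 µM (0.00316) and by 0.41 ± 0.11 with IFN-γ (0.00791). Of 14 genes of sterol esterification, oxidation and export, 3 fell and 2 rose at 400 µM, 1 fell and 1 rose at 200 µM, 1 fell and 6 rose with IFN-γ and 2 fell and 4 rose with IL-4. Abca1, an exporter of cholesterol, fell at 400 µM (-1.91 ± 0.29, edgeR adjusted p = 0.00036) and with IL-4 (-1.36 ± 0.28, 0.00278). At 200 µM Abca1 was not called. Abcg1, a second exporter, rose with IFN-γ by 1.74 ± 0.32 (0.000699) and with IL-4 by 1.97 ± 0.32 (0.000457).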

How the data were processed

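The 15 libraries, 3 for each of 5 groups, were prepared with a stranded kit, per the labels' protocols. The table deposited by the authors holds raw counts per gene. The submitters' processing notes list STAR 2.7.0e, SAMtools 1.9, featureCounts and GRCm38.p5. No annotation, strand setting or featureCounts version was given in the sources used here. Symbols and exon lengths came from GENCODE M21, which held 25664 of the 25700 gene identifiers. Exon bases are shared with another gene for 10 members, and 6 members match another transcript at 95% identity over 200 bases or more, which makes their counts uncertain.

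After filterByExpr (11883 genes) and TMM scaling (factors 0.886 to 1.12), edgeR 4.0.16 in R 4.3.3 fitted 1 quasi-likelihood model to all libraries, with group means as coefficients and no block, and 7 comparisons were drawn from it. Benjamini-Hochberg adjustment covered all genes of a comparison and the threshold was 0.05. An SE is the absolute log2 change divided by the square root of F. Precision is lower in the smallest library (8427352 counts) than in the largest (28587416). Tried as alternatives were DESeq2 1.42.0, other scaling factors (DESeq2, upper quartile), no filter or 5 CPM in 3 libraries, the replicate block, fits on the 6 libraries compared, and omission of each library or of both that stood apart; the block within 6 libraries was added after seeing the data. In counts simulated for heme-albumin 400 µM against control (11883 genes), the test recovered 10 of 50 genes at 1.5-fold, 39 of 50 at 2-fold, 50 of 50 at 4-fold and 50 of 50 at 8-fold, with 3 false among 152 calls.

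Members, lists, motifs and alternatives were chosen with earlier results of these data known. Every member could be named; values in each library are given where the p was small within a role, where a member moved against its role, or where a comparison turned on it, and other lists by up to 4 genes of small p. Headers of the count table show 3 dates, each tied to a single replicate number across groups, so the numbers were taken to pair the samples. The main fit nevertheless left this pairing out, and only the fits with the replicate block used it. The meaning of the dates was not given. Deviations from group means correlated with a median r of 0.144 over 30 pairs of equal number (-0.168 to 0.474, over 0.1 in 19) and of -0.0688 over 60 other pairs, and 14 of 15 libraries lay closest to their own number. Deviations within a group cancel out, so the value over other pairs is tied to that over pairs of equal number. It is no separate evidence of pairing. Upstream sequence is from RefSeq (GRCm38.p6); that of Sqle, Fdps, Stard4, Fads1 and Fdft1 was not used here. Figures were drawn in Python 3.11.15 with matplotlib 3.10.9.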

Additional observations from a re-analysis of the deposited data

How the results depend on the processing

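The count of fallen members kept within 1.5 times its value under every alternative run at 200 µM and with IFN-γ, where leaving out 1 library gave 17 to 22 and 27 to 28. At 400 µM leaving out 1 library gave 15 to 24 fallen and 0 to 1 risen members, against 7.49% to 10.2% and 10.3% to 14.8% of all genes. The 2 members that rose at 400 µM became 1 with no filter, 1 without the 2 libraries that stood apart (heme-albumin 400 µM replicate 2 and IFN-γ replicate 3), 1 with only the 6 libraries compared and 0 with those 6 and the replicate block. The share of all genes that rose was 9.59%, 15.4%, 14.4% and 13.2%, in the same order. At 200 µM the 1 risen member became 0 to 1 on leaving out 1 library, against 8.31% to 11.6% of all genes. With IL-4, the counts of 1 lower and 0 higher became 7 and 2 without the 2 libraries that stood apart, against 18.2% and 20.0% of all genes. They became 16 and 4 with only the 6 libraries (22.0% and 23.0%), and 18 and 6 with those 6 and the block (28.4% and 28.9%). In these fits fewer other libraries set the spread. Leaving out 1 library gave 0 to 1 lower, against 8.44% to 9.81% of all genes. Between the doses, 0 higher became 3 with the 6 libraries and the block, against 1.31% of all genes. Against IL-4, 2 higher became 1 without the 2 libraries, 1 with the 6 libraries, 1 with the 6 and the block, and 1 to 2 on leaving out 1 library. In these fits 16.8% to 21.5% of all genes were higher. Against IFN-γ, 14 higher became 8 with the 6 libraries (11.0% of all genes) and 8 with those and the block (8.35%), and 9 to 18 on leaving out 1 library (16.9% to 22.6%). There 0 lower became 1 without the 2 libraries (19.4%) and 0 to 1 on leaving out 1 library (18.4% to 23.6%). The replicate block alone gave 26 lower at 400 µM, 25 at 200 µM, 1 with IL-4, 29 with IFN-γ and 21 against IL-4, and beyond the calls given with the results it changed none. The share of all genes lower with the block was 12.7%, 11.4%, 13.0%, 21.1% and 21.3%, in the same order. On leaving out 1 library the sign turned for Acss2 at 200 µM (-0.07 to 1.03, lowest without replicate 2) and, for values near 0 with IL-4, for Hmgcs1 (-0.21 to 0.01), Sqle (-0.13 to 0.02), Insig2 (-0.03 to 0.11) and Srebf2 (-0.02 to 0.09). Upper-quartile scaling moved the median of all genes with IFN-γ from 0.05 to -0.06. Except where stated, the cause was not tested. In the simulated counts, with 3 libraries a group, 1.5-fold changes were mostly missed (10 of 50). That simulation gave 152 calls, while the data gave 1744 higher and 1279 lower at 400 µM, so its recovery rate need not hold for the data.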
